A study of Homo sapiens with 2 samples.

Results

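Receptor tyrosine kinase genes, the genes of their ligands and those of the SHC, GRB2 and GAB adaptors were examined as a set of 57 named genes. Each was represented by the array probe sets that carry its symbol and no other in the platform annotation, averaged per gene. Of the 57 genes, 54 were measured in this way, out of 18417 named genes in all. AREG and EPHB2 had no such probe set and were not analysed here, and RET shared its probe set with KIF5B. The samples were 2 cultures of A549, an established human lung adenocarcinoma cell line, 1 overexpressing miR-130b and 1 transfected with an empty vector. From each culture, RNA bound to Argonaute2 (Ago2), the effector protein of microRNA silencing, to which guide microRNAs and their paired mRNAs are bound, was pulled down with an antibody and put on 1 array. The rule for membership is a list of gene families and uses no measured value, although earlier results of these data were known when the list was drawn up.

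Receptor tyrosine kinases are single-pass membrane proteins that phosphorylate tyrosines on themselves when a ligand brings their subunits together. The phosphotyrosines are docking sites for adaptors such as SHC1 and GRB2, which lead to the RAS-MAPK cascade, and GAB proteins, which recruit PI3-kinase. In lung epithelium and lung adenocarcinoma the ERBB family and MET are known drivers of growth, while ephrins and their EPH receptors guide contact between neighbouring cells. A microRNA in Ago2 finds its target mRNAs mainly through its seed, the bases 2 to 8 from its 5' end.

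The overexpressed microRNA is shown because its seed is what a bound mRNA would pair with. Both arms are given as RefSeq lists them (GRCh38.p14, plus strand), 5' to 3', with the seed in capitals, since the labels do not name an arm. The 3p arm lies at chr22:21653354-21653375 and the 5p arm at chr22:21653316-21653336. The third sequence, miR-301a-3p (chr17:59151149-59151171, minus strand), is another human microRNA with the seed of the 3p arm.
miR-130b-3p: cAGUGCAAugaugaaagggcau
miR-130b-5p: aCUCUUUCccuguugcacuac
miR-301a-3p: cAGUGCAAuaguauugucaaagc
The sequences of the 3p arm and miR-301a-3p share the 7 seed bases and differ further along. The 5p arm has another seed, CUCUUUC. The probe set of MIR130B gave a log2 value of 12.64 on the miR-130b array and 6.66 on the empty-vector array, in the direction the labels state. Whether this probe set detects the mature microRNA is not known. The mRNA of AGO2 itself differed by 0.25 (11.66 with miR-130b, 11.41 with the empty vector). The probe set of MIR301A, added after its values were seen, gave 3.51 on the miR-130b array and 3.73 on the empty-vector array.

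All values are the deposited log2 expression values, and each difference is the value with miR-130b minus that with the empty vector, so that 1 is a 2-fold higher value. There was 1 array per group, so no difference has a replicate error or a test, and each describes these 2 arrays. As a yardstick within the arrays, the difference varied between probe sets of 1 gene with a pooled SD of 0.16. This SD was measured on 356 genes that passed the filter given below. A difference of 0.33, or 1.25-fold, is 2 such SDs. This SD leaves out the variation between cultures and between precipitations. Genes below the filter did not enter it, so its fit to them, where it is also applied, is not known. A filter kept the genes whose mean over both arrays was at least 8.64, the median of all named genes, and 9209 genes passed it. Of the 54 measured genes of the set, 31 passed and 23 did not. Of the 31, ERBB3 and TGFA lay above the filter level on the empty-vector array and below it on the miR-130b array, and GAS6 and GAB1 the other way round. Input RNA from the cultures was not analysed here, so altered abundance of an mRNA and altered binding to Ago2 cannot be told apart, nor can fewer cells with a transcript and less transcript per cell. Of 10 measured epithelial markers of A549 cells, 9 were above the filter. The keratin KRT8 stood at 13.48 with miR-130b and 13.38 with the empty vector, and KRT18 at 13.19 with miR-130b and 13.22 with the empty vector, and CDH1, E-cadherin, at 11.49 with miR-130b and 12.61 with the empty vector, whereas the epithelial adhesion gene EPCAM was below the filter at 6.80 with miR-130b and 6.999 with the empty vector.

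The genes of the set divided evenly between higher and lower values. Among the 31 above the filter, 15 were higher with miR-130b and 16 lower, where 51.5% of all 9209 kept genes were higher and 48.4% lower. Their median difference was -0.0012, and that of all kept genes was 0.010. Of these 31, SHC3 was at least 2-fold higher, and 1.32% of all kept genes were. ERBB3 and TGFA, which passed the filter through their empty-vector values, were at least 2-fold lower, and 1.60% of all kept genes were. At 1.5-fold, 2 were higher and 5 lower, against 5.04% and 5.87% of all kept genes. Past 2 pooled SDs, 3 of the 31 were higher and 8 lower with miR-130b, where 14.2% of all kept genes were higher and 15.4% lower by as much. Among the 23 genes below the filter, EPHA4 and EFNB2 were at least 2-fold higher, a size that 0.804% of all genes below the filter reached, and none was at least 2-fold lower, a size that 1.14% reached. Of these 23, 16 were higher with miR-130b, but so were 65.6% of all 9208 genes below the filter, whose median difference was 0.081. Past 2 pooled SDs, 9 of the 23 were higher and none lower, against 9.39% and 7.87% of the genes below the filter.

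**Figure D1:**
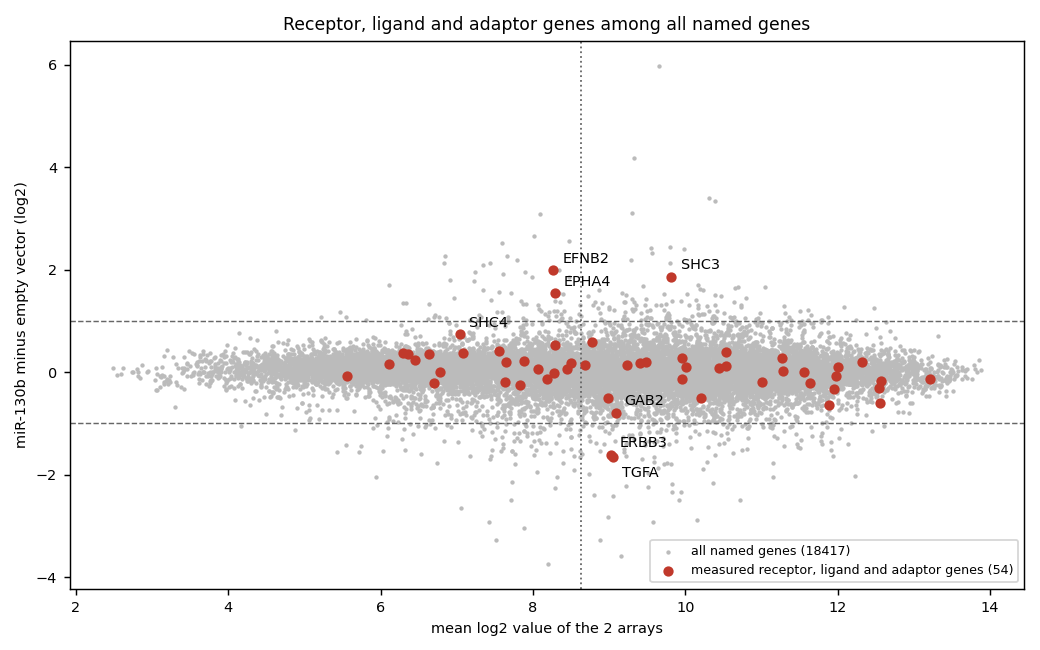
Difference between the arrays (miR-130b minus empty vector, log2) against the mean log2 value of the 2 arrays. Grey points are the 18417 named genes, red points the 54 measured receptor, ligand and adaptor genes. The dashed lines mark 2-fold and the dotted line the filter at 8.64. SHC3, EFNB2 and EPHA4 lie above the upper 2-fold line and ERBB3 and TGFA below the lower one.

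In epidermal growth factor signalling, 3 receptors and 4 ligands passed the filter. Of these, 1 receptor and 3 ligands were lower with miR-130b by more than 2 pooled SDs, and none was higher by as much. Of all kept genes, 15.4% were lower and 14.2% higher by as much. ERBB3, which encodes a receptor of weak kinase activity that signals in pairs with ERBB2 or EGFR, had 8.22 on the miR-130b array and 9.83 on the empty-vector array, a difference of -1.61. Its value was thus 3.05-fold lower with miR-130b. TGFA, transforming growth factor alpha, a ligand of EGFR, had 8.22 with miR-130b and 9.88 with the empty vector, and was 3.16-fold lower. These were the strongest decreases among the 54 measured genes. Both genes passed the filter through their empty-vector value alone, so their place in the counts above depends on that array.

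The other ERBB ligands differed less. EREG, epiregulin, a ligand of EGFR and ERBB4, stood at 12.25 with miR-130b and 12.86 with the empty vector, 1.52-fold lower. HBEGF, a heparin-binding ligand of the same receptors, stood at 9.95 with miR-130b and 10.46 with the empty vector, 1.43-fold lower. Both differences exceeded 2 pooled SDs. NRG1, neuregulin 1, the ligand of ERBB3 and ERBB4, differed by 0.09 (12.05 with miR-130b, 11.96 with the empty vector), and its 2 probe sets gave -0.0038 and 0.19. BTC, betacellulin, was below the filter at 7.53 with miR-130b and 7.74 with the empty vector. Of the 4 ligands above the filter, EREG and HBEGF lay past 2 pooled SDs on the lower side, with values above the filter level on both arrays. TGFA also did, but it passed the filter through its empty-vector value alone, so its place in this count depends on that array. Of all kept genes, 15.4% lay past 2 pooled SDs on the lower side. None of the 4 ligands lay past it on the upper side.

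The receptors of these ligands did not share the size of the ERBB3 difference. EGFR itself had 12.38 on the miR-130b array and 12.70 on the empty-vector array, a difference of -0.32, just short of 2 pooled SDs. ERBB2, the receptor without a ligand of its own, differed by 0.07 (10.48 with miR-130b, 10.41 with the empty vector). ERBB4 lay below the filter, at 6.57 with miR-130b and 6.33 with the empty vector. Both of its values were under the 95th percentile of 341 olfactory receptor genes, odorant receptors of the nose taken as a rough background level, at 7.17 with miR-130b and 7.08 with the empty vector.

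**Figure D2:**
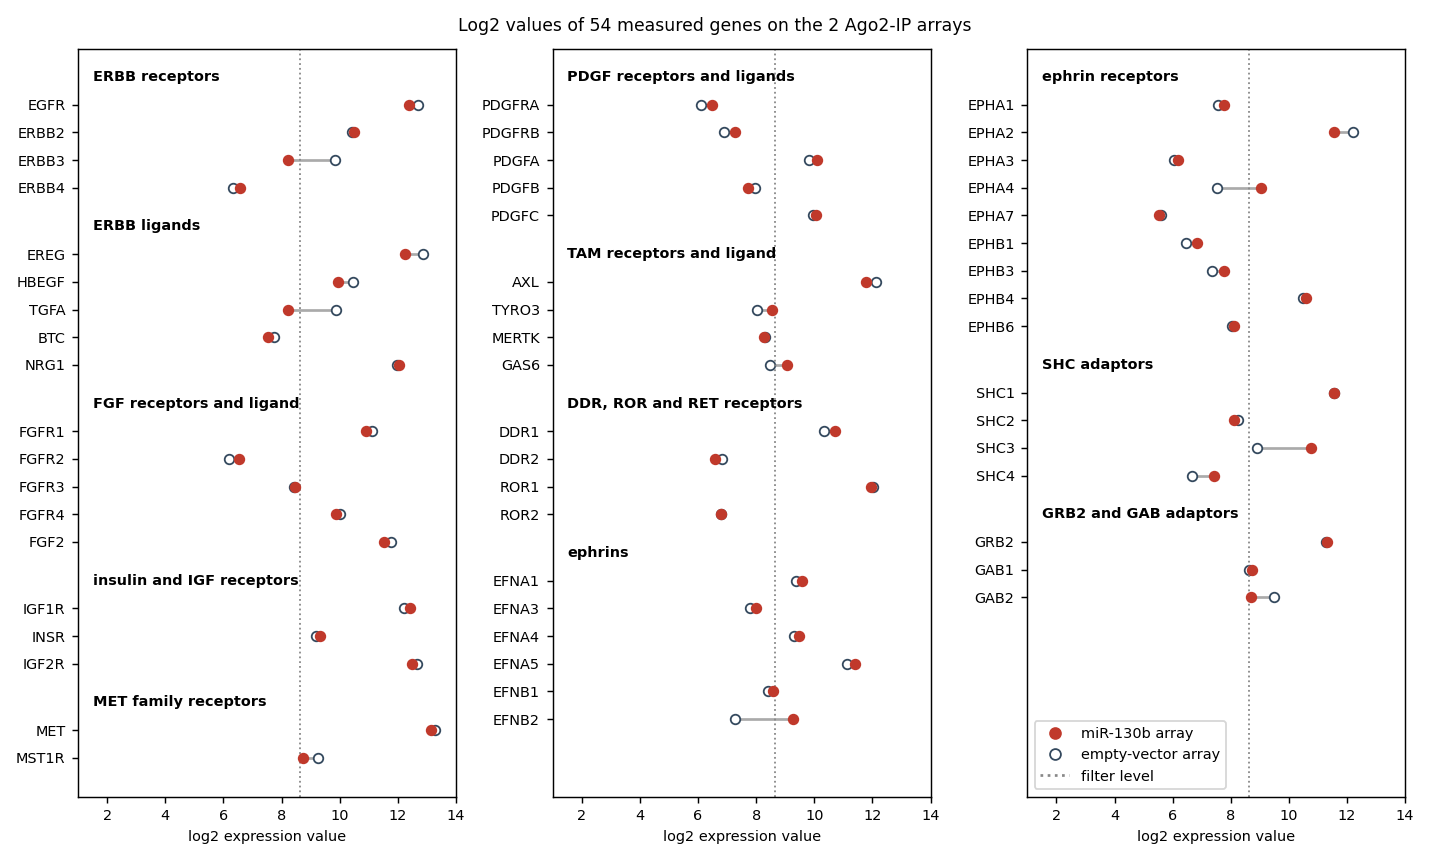
Log2 value of each of the 54 measured genes on the miR-130b array (filled red) and on the empty-vector array (open), by family. Values can be compared within a row and not between rows, because probe sets differ in brightness. The dotted line is the filter at 8.64. The widest gaps are those of ERBB3 and TGFA, lower with miR-130b, and of EPHA4, EFNB2 and SHC3, higher with miR-130b.

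Among the measured receptors and ligands of the set, the ephrin EFNB2 and the ephrin receptor EPHA4 had the largest increases. EFNB2, ephrin-B2, a transmembrane ligand that marks arterial endothelium, had 9.26 on the miR-130b array and 7.27 on the empty-vector array, a difference of 1.99 (3.98-fold higher). EPHA4, a receptor that binds ephrins of both the A and the B class, had 9.06 on the miR-130b array and 7.51 on the empty-vector array, a difference of 1.54 (2.91-fold higher). Both genes were below the filter on mean level and above its level on the miR-130b array. Their empty-vector values were close to the 95th percentile of olfactory receptor genes on that array (7.08), so these folds may understate the difference.

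All 6 ephrins were higher with miR-130b. Apart from EFNB2 they differed by between 0.17 and 0.27, within 2 pooled SDs. EFNA5 differed most among them (11.40 with miR-130b, 11.13 with the empty vector) and EFNB1 least (8.58 with miR-130b, 8.41 with the empty vector). EFNA1 differed by 0.20 and EFNA4 by 0.18, both above the filter, and EFNA3 by 0.22 below it. Over all sizes of difference, 51.5% of the kept genes and 65.6% of the genes below the filter were higher with miR-130b.

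The EPH receptors were unequal. EPHA2, a receptor that is abundant in many carcinomas and binds A-class ephrins, was lower with miR-130b, at 11.57 against 12.20 with the empty vector, a 1.56-fold decrease. EPHB4, the receptor of ephrin-B2, differed by 0.12 (10.60 with miR-130b, 10.48 with the empty vector). EPHA2 and EPHB4 were the 2 EPH receptors above the filter, so the family's median depended on which genes were counted: it was -0.26 over these 2 and 0.16 over all 9 measured. Below the filter, EPHB3 differed by 0.40 (7.75 with miR-130b, 7.35 with the empty vector) and EPHB1 by 0.36 (6.82 with miR-130b, 6.46 with the empty vector). EPHB1 lay under the 95th percentile of olfactory receptor genes on both arrays. EPHA1, EPHA3, EPHA7 and EPHB6 lay between -0.08 and 0.21.

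Of the SHC adaptors, which carry a phosphotyrosine-binding and an SH2 domain and link receptors to GRB2, SHC3 differed most. SHC3, the form best known from neurons, had 10.75 on the miR-130b array and 8.89 on the empty-vector array, a difference of 1.87 (3.64-fold higher), and ranked 12th of the 9209 kept genes from the highest difference. SHC1, the widely expressed form, had 11.56 on both arrays, with a difference of -0.0012. SHC4 was below the filter and differed by 0.75 (7.41 with miR-130b, 6.66 with the empty vector). Its empty-vector value lay under the 95th percentile of olfactory receptor genes, so no fold is given. SHC2 was also below the filter and differed by -0.14 (8.12 with miR-130b, 8.26 with the empty vector). The higher values were thus those of SHC3 and SHC4, and the values of SHC1 and SHC2 differed by less than 1 pooled SD.

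The partners of the SHC proteins did not follow SHC3. GAB2, a docking protein that recruits PI3-kinase and the phosphatase SHP2, had 8.69 on the miR-130b array and 9.48 on the empty-vector array, a difference of -0.79 (1.73-fold lower). GAB1, its relative downstream of MET and EGFR, differed by 0.14 (8.75 with miR-130b, 8.61 with the empty vector), and its 2 probe sets gave 0.16 and 0.11. GRB2, the adaptor that brings the RAS activator SOS to receptors, differed by 0.03 (11.30 with miR-130b, 11.27 with the empty vector).

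**Figure D3:**
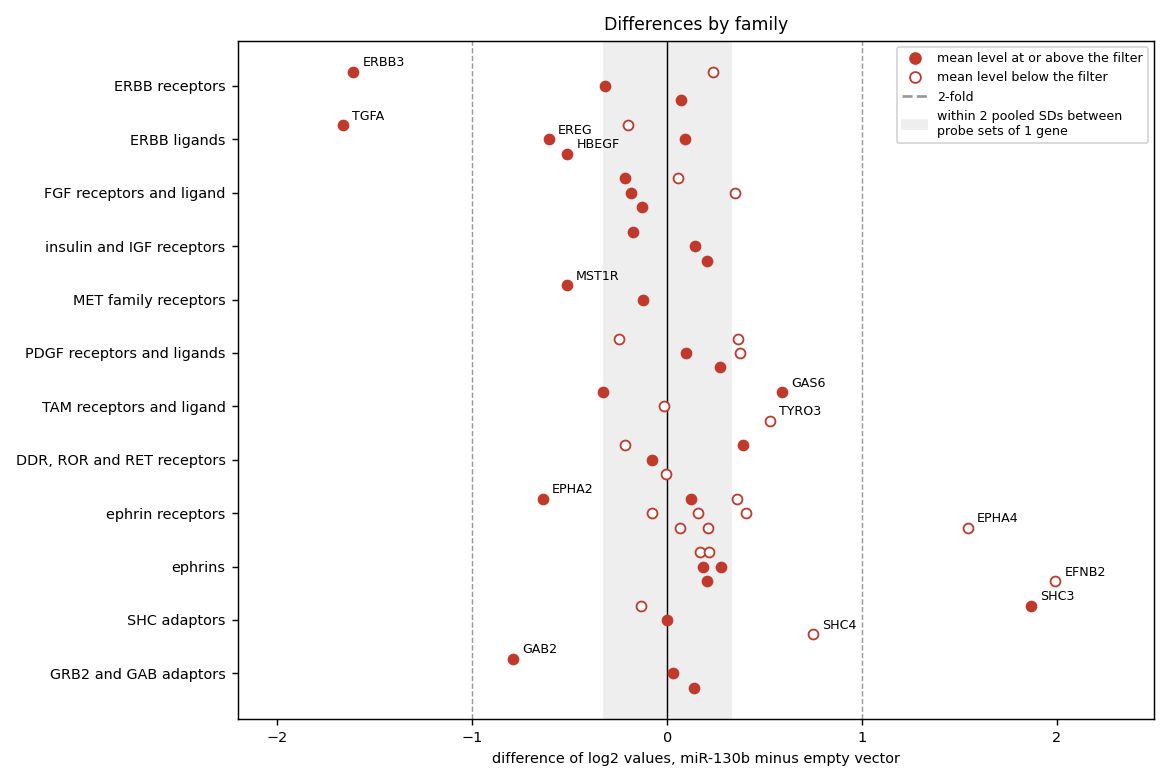
Difference of log2 values, miR-130b minus empty vector, for each measured gene, by family. Filled points passed the filter on mean level, open points did not. The grey band is 2 pooled SDs between probe sets of 1 gene (0.33 either way) and the dashed lines are 2-fold. ERBB ligands lie mostly to the left and ephrins to the right, and 34 of the 54 genes lie inside the band.

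None of the FGF, insulin-type and MET-type genes differed by at least 2-fold, and MST1R and FGFR2 were the ones past 2 pooled SDs. Of all kept genes, 1.32% were at least 2-fold higher and 1.60% lower. Past 2 pooled SDs, 14.2% of the kept genes were higher and 15.4% lower. Below the filter, where FGFR2 lay, 9.39% of all genes were higher by as much and 7.87% lower. FGFR1 had 10.91 with miR-130b and 11.10 with the empty vector, and FGFR4 had 9.89 with miR-130b and 10.02 with the empty vector. FGF2, basic fibroblast growth factor, differed by -0.21 (11.54 with miR-130b, 11.75 with the empty vector). All 3 were slightly lower and within 2 pooled SDs, while FGFR2 (0.35) and FGFR3 (0.06) were below the filter, and FGFR2 lay under the 95th percentile of olfactory receptor genes on both arrays.

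IGF1R, the receptor of insulin-like growth factors, averaged 12.43 with miR-130b and 12.22 with the empty vector. Its 2 probe sets disagreed: 1 differed by 0.0034 and the other by 0.41 (11.64 with miR-130b, 11.23 with the empty vector). INSR, the insulin receptor, differed by 0.14, and IGF2R, a receptor that clears IGF2 and has no kinase domain, by -0.17. MET, the receptor of hepatocyte growth factor, had 13.15 with miR-130b and 13.28 with the empty vector. MST1R, the MET relative that binds macrophage-stimulating protein, had 8.73 with miR-130b and 9.24 with the empty vector, 1.43-fold lower. Within this pair only the MST1R difference of -0.51 exceeded 2 pooled SDs.

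The TAM receptors (TYRO3, AXL and MERTK) and their ligand GAS6, which also bridges to phosphatidylserine on dying cells, went both ways. GAS6 had 9.07 on the miR-130b array and 8.48 on the empty-vector array, a difference of 0.59. TYRO3 differed by 0.53 below the filter (8.55 with miR-130b, 8.03 with the empty vector). AXL, a receptor linked to invasive behaviour of carcinoma cells, had 11.78 with miR-130b and 12.11 with the empty vector, a difference of -0.33. MERTK differed by -0.02. GAS6 and TYRO3 were higher by more than 2 pooled SDs. AXL lay at that limit, and inside it after quantile normalization (-0.30) and cyclic loess (-0.31).

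Among collagen and Wnt5a receptors, DDR1, a collagen receptor of epithelial cells, was higher on each of its 3 probe sets, which gave 0.39, 0.40 and 0.39. Its mean was 10.73 with miR-130b and 10.33 with the empty vector. DDR2, the collagen receptor better known from mesenchymal cells, was below the filter and its 2 probe sets disagreed, at -0.61 and 0.18. ROR1, a receptor for Wnt5a with little kinase activity, had 11.95 with miR-130b and 12.03 with the empty vector, and ROR2 stood at 6.78 with miR-130b and 6.79 with the empty vector.

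Of the PDGF genes, the ligands PDGFA and PDGFC passed the filter, and the ligand PDGFB and both receptors did not. PDGFA differed by 0.27 (10.09 with miR-130b, 9.82 with the empty vector) and PDGFC by 0.10 (10.06 with miR-130b, 9.96 with the empty vector), and PDGFB, below the filter, by -0.25. PDGFRA had 6.48 with miR-130b and 6.12 with the empty vector, and PDGFRB had 7.27 with miR-130b and 6.89 with the empty vector. PDGFRA lay under the 95th percentile of olfactory receptor genes on both arrays. Both receptors also mark fibroblasts, and all 10 genes of a fibroblast marker list that holds them had larger values on the miR-130b array. Of these 10, 9 were below the filter, where 65.6% of all genes were higher. FAP, a fibroblast surface protease, differed most, at 6.97 with miR-130b and 5.26 with the empty vector. Like PDGFRA, FAP lay under the 95th percentile of olfactory receptor genes on both arrays. The list had a median difference of 0.35 and a mean log2 level of 7.05 with miR-130b against 6.59 with the empty vector. Single levels in that list ran from 4.55 to 9.05 with miR-130b and from 4.46 to 8.74 with the empty vector, and COL1A1 was its 1 gene above the filter. The fibroblast transcript DCN, the lowest of the list, stood at 4.55 with miR-130b and 4.46 with the empty vector. The part of such cells in the PDGF receptor values was not tested.

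The rest of the pathway was read from 5 further lists. Of 41 listed genes downstream of the receptors, 25 passed the filter, with 13 higher and 12 lower and a median of 0.0031. Of all kept genes, 51.5% were higher and 48.4% lower. None of the 25 differed by at least 2-fold, where 1.32% of all kept genes were higher and 1.60% lower by as much. IRS1, the docking protein of the insulin and IGF1 receptors, was highest at 0.91 (11.70 with miR-130b, 10.79 with the empty vector), followed by the PI3-kinase subunit PIK3R1 at 0.53. GRB10, an adaptor that restrains the insulin receptor, was lowest at -0.64 (11.08 with miR-130b, 11.72 with the empty vector), followed by the adaptor NCK1 at -0.39. The core of the cascade that could be read was near its empty-vector level, with HRAS, MAP2K1 and MAP2K2 all within 2 pooled SDs.

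Genes of receptor turnover and feedback inhibition had 22 of 25 listed members above the filter, with 8 higher, 13 lower and a median of -0.05, where 51.5% of all kept genes were higher and 48.4% lower. LRIG1, a membrane protein that promotes the degradation of ERBB receptors, was 2.16-fold lower (9.13 with miR-130b, 10.24 with the empty vector). RNF41, a ubiquitin ligase that lowers ERBB3 protein, differed by -0.61 (9.63 with miR-130b, 10.24 with the empty vector). The inhibitor SPRY2 was higher at 0.80 (11.49 with miR-130b, 10.70 with the empty vector), and the ERK phosphatase DUSP7 at 0.56. Their relatives SPRY4 and DUSP6 stood at -0.15 and -0.05, and ERRFI1, an inhibitor of ERBB kinases, at -0.39.

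The IGF binding proteins, secreted carriers that hold IGFs away from IGF1R or present them to it, had 1 member past 2-fold in each direction. By as much, 1.32% of all kept genes rose and 1.60% fell. IGFBP7 had 11.52 on the miR-130b array and 10.07 on the empty-vector array, 2.73-fold higher. IGFBP1 had 10.75 on the miR-130b array and 12.21 on the empty-vector array, 2.74-fold lower. IGFBP4 differed by 0.44, and the median of the 5 members above the filter (7 listed) was 0.27. Among 26 other receptor tyrosine kinases 3 passed the filter, LMTK3 at 0.23, LMTK2 at 0.07 and RYK at -0.12. Among 33 other ligands of receptor tyrosine kinases 7 passed, with a median of 0.19. BDNF, the ligand of NTRK2, was highest at 0.83 (9.75 with miR-130b, 8.92 with the empty vector), VEGFC followed at 0.43, and VEGFA (-0.09) and VEGFB (-0.04) were lowest.

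**Figure D4:**
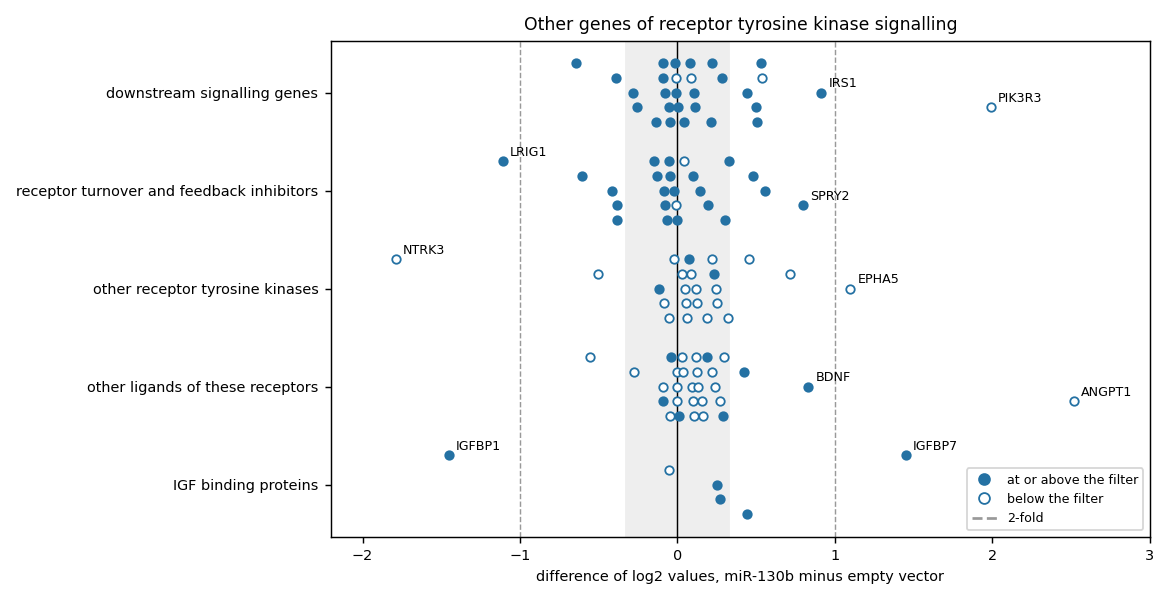
Difference of log2 values, miR-130b minus empty vector, for the measured genes of 5 further lists of the pathway. Filled points passed the filter on mean level, open points did not, the grey band is 2 pooled SDs (0.33 either way) and the dashed lines are 2-fold. IGFBP7 and IGFBP1 lie past the 2-fold lines on opposite sides, and LRIG1 lies past the lower one.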

How the data were processed

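RNA precipitated with an anti-Ago2 antibody from 2 samples of A549 cells was measured on an Affymetrix array, 1 array per sample, from biotin-labelled whole-transcript cDNA, per the labels' protocols. The extraction protocol in the labels describes excised tissue and a small-RNA kit, so how the precipitated RNA was purified is unclear. The deposited values are log2 expression values for 33297 probe sets per array, with medians of 7.77 on both; the unit was read from their range, 1.95 to 14.17, while software, background correction and normalization were not given in the sources used here. Near-equal distributions remove any overall difference in RNA amount, and background adds to low signals. The number of arrays limits the precision.

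Probe sets were named through a copy of the platform annotation: 19460 had 1 gene symbol (19429 updated through Entrez identifiers to RefSeq), 1754 had several and were not used for single genes, and 12083 were unnamed here. Probe sets were averaged per gene (18417 genes), and 9209 genes with a mean at or above 8.64 were kept. No test was possible with 1 array per group. The genes, families and lists were chosen with earlier results of these data known. Every gene of the set may be named; outside it, MIR130B, KRT8, KRT18, EPCAM and marker genes serve as checks, and each other list gives its 2 largest differences each way among kept genes. HRAS, MAP2K1, MAP2K2, SPRY4, DUSP6, ERRFI1, FAP, KDR, ESAM, CD68, ITGAM, CD14 and MIR301A were added after their values were seen. The counting was tested on simulated data. Alternatives were no filter, the 75th percentile, quantile normalization, cyclic loess (limma 3.58.1), centring, the brightest probe set and a 1.5-fold threshold. Python 3.11.15 and R 4.3.3 were used. Sequences are from RefSeq (GRCh38.p14); the files name no genome build, so no gene coordinates are given.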

Additional observations from a re-analysis of the deposited data

Results flagged for a closer look

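A probe set shared by EBF1 and PDGFRB lay outside the comparison because it carries 2 symbols, and it was higher with miR-130b, at 9.99 against 9.47 with the empty vector, a difference of 0.52. It cannot be assigned to PDGFRB, whose own probe set differed by 0.38. The probe set shared by RET and KIF5B gave 6.97 with miR-130b and 6.70 with the empty vector.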

How the results depend on the processing

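No paired analysis was possible because each group has 1 array. Of the 54 measured genes, 53 kept the sign of their difference under quantile normalization, cyclic loess, centring and the brightest probe set, and the exception was SHC1, at -0.0012. With the brightest probe set, IGF1R was at 0.0034 and DDR2 at -0.61. These 4 alternatives moved no count of the set or a list by more than 1.5 times, and no median of the set, a family or a list by 1 pooled SD or more. The widest such move was that of the insulin and IGF receptors, to 0.0034 with the brightest probe set, against 0.14. The filter decided more, because it sets which genes are counted. Without it 3 genes of the set were at least 2-fold higher. Counts of the other lists that changed were 1 downstream gene, 1 other receptor and 1 other ligand higher and 1 other receptor lower. Of all named genes, 1.06% were at least 2-fold higher and 1.37% lower. The medians without the filter were -0.12 for ERBB receptors, -0.043 for DDR, ROR and RET receptors, 0.16 for ephrin receptors and 0.37 for SHC adaptors. At the 75th percentile 0 genes of the set were at least 2-fold higher and 0 lower, and 0 feedback inhibitors were lower. Of all genes that passed this stricter filter, 0.869% were at least 2-fold higher and 1.30% lower. The medians were then -0.12 for ERBB receptors, -0.26 for ERBB ligands, -0.12 for the MET family, -0.33 for the TAM group, -0.0012 for SHC adaptors and -0.039 for other ligands. At 1.5-fold, 2 genes of the set were higher and 5 lower (5.04% and 5.87% of kept genes), 1 downstream gene was higher and 1 lower, 1 feedback inhibitor higher and 2 lower, and 1 other ligand higher. A family with no gene above the stricter filter gave no value. With 1 array per group, no difference can be separated from variation between cultures or precipitations.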

Other observations

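Several other genes of receptor signalling that were below the filter on mean level differed by at least 2-fold, and they were picked out after their values were seen. They came from lists with 29 downstream genes, 23 other receptors and 29 other ligands measured, on either side of the filter. By as much, 0.804% of all genes below the filter rose and 1.14% fell. ANGPT1, angiopoietin 1, the activating ligand of the endothelial receptor TEK, had 8.85 on the miR-130b array and 6.33 on the empty-vector array, a difference of 2.52. Its empty-vector value lay under the 95th percentile of olfactory receptor genes (7.08), so no fold is given. PIK3R3, a regulatory subunit of PI3-kinase, had 9.34 with miR-130b and 7.35 with the empty vector, 3.97-fold higher. EPHA5, an ephrin receptor best known from the nervous system, had 8.75 with miR-130b and 7.65 with the empty vector, 2.14-fold higher.

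NTRK3, the receptor of neurotrophin 3, was lower, at 6.87 with miR-130b and 8.66 with the empty vector, a difference of -1.79. Its miR-130b value lay under the 95th percentile of olfactory receptor genes on that array (7.17). TEK, the receptor of ANGPT1, stood at 6.01 with miR-130b and 5.69 with the empty vector. The endothelial marker list, which holds TEK, had 7 of 8 genes higher with miR-130b (65.6% of all genes below the filter, where 7 of the 8 lay), a median difference of 0.13 and a mean log2 level of 6.97 with miR-130b against 6.83 with the empty vector, and PECAM1 was at 4.97 with miR-130b and 4.85 with the empty vector. Its members KDR (0.71) and ESAM (-0.61) went opposite ways. The leukocyte marker list had 6 of 9 measured genes higher, and 2 of the 9 passed the filter. Of all genes, 65.6% of those below the filter and 51.5% of those kept were higher. The leukocyte list had a median of 0.04 and a mean level of 6.92 with miR-130b against 7.003 with the empty vector. Its members furthest from 0 were CD68 (-1.18), ITGAM (-0.66) and CD14 (0.63). The part of other cells in these values was not tested.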
